A study of Mus musculus with 12 samples.

Results

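The 10 genes of Wnt signalling described here were followed through 12 RNA sequencing libraries of mouse HSCs. The labels leave HSC unexplained; hepatic stellate cells, which store vitamin A and wrap the liver sinusoids, is the reading taken here. The genes were chosen by symbol: the ligands Wnt2, Wnt4, Wnt5a and Wnt9b, the R-spondins Rspo1 and Rspo3, the antagonists Sfrp1, Dkk2 and Dkk3, and the target gene Axin2. All 10 were found, through the gene symbols of their Ensembl identifiers, among the 53452 genes of the table, and all 10 were among the 16036 genes that passed the filter on low counts. The HSCs came from the livers of wild-type mice (the labels give no strain, sex or age). They were cultured for 12 h, given fresh medium and collected 24 h later. A control group of 3 libraries received the solvent DMSO for the last 12 h, and 3 groups of 3 libraries received riociguat, a stimulator of soluble guanylate cyclase, for the last 6, 12 or 24 h. The compound was thus added 18 h, 12 h or 0 h after the medium change, and DMSO 12 h after it. Only the comparison of riociguat 12 h with DMSO is matched in time. No dose is stated in the labels. The labels do not tie replicates to separate animals, so the spread behind each p-value is that of these libraries and could be technical only.

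Wnt proteins are secreted, lipid-modified ligands that bind Frizzled receptors with the co-receptors Lrp5 and Lrp6. The canonical branch stabilises beta-catenin, which acts with TCF/LEF factors on target genes such as Axin2. R-spondins bind Lgr receptors and remove the ligases Znrf3 and Rnf43 from the cell surface, which keeps Frizzled receptors in place. Sfrp proteins bind Wnts outside the cell, and classical Dkk proteins block the Lrp co-receptors. In the liver, endothelial cells of the central vein and sinusoids are known sources of Wnt2, Wnt9b and Rspo3, which maintain the pericentral programme of hepatocytes, and stellate cells are a further known source of Rspo3.

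Library totals ranged from 12953096 to 27358893 counts. Levels are CPM, counts scaled to a library size of 1000000 with TMM factors. DMSO replicate 1 stood apart from the other DMSO libraries, with a chi-square value per degree of freedom of 12.3 and 16.0 against them, compared with 4.08 to 7.93 for the other 10 pairs within groups. All 12 genes of a stellate marker list, Lrat, Reln, Des and Pdgfrb among them, were detected in every group, and their levels summed to 3069 to 3134 CPM in the DMSO libraries. Markers of sinusoidal endothelial cells summed to 1996 to 2105 CPM there, those of hepatocytes to 1193 to 1249 CPM, those of portal fibroblasts and mesothelium to 633 to 712 CPM, those of cholangiocytes to 549 to 591 CPM, those of macrophages to 69.5 to 79.4 CPM and those of lymphocytes to 4.04 to 4.83 CPM. RNA of several cell types was thus present, and fewer cells of a type cannot be told apart from less RNA per cell. Krt19, at a mean of 123 CPM in DMSO, is in both the portal fibroblast and mesothelial list and the cholangiocyte list. These 2 sums are therefore not separate amounts of RNA. Fbln2 (384 CPM), Krt19 and Cd34 (107 CPM) made up most of the portal fibroblast and mesothelial sum, and each other gene of that list was at 17.5 CPM or less.

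The members spanned a wide range of abundance. Per kilobase of annotated exon in DMSO, the highest was Rspo3 at 92.7 ± 4.72 CPM per kb (SD, n = 3), 17.2 times the level of the next, Dkk3, at 5.38 ± 0.698 CPM per kb. Wnt2 (4.42 ± 0.119 CPM per kb), Wnt4 (3.68 ± 0.0961) and Wnt5a (3.19 ± 0.198) followed in that order, each with all 3 libraries below those of the gene before it. Rspo1, at 2.87 ± 0.347 CPM per kb, overlapped with Wnt5a. Axin2 (0.753 ± 0.0569 CPM per kb) and Sfrp1 (0.719 ± 0.153) overlapped with each other. Dkk2 was at 0.269 ± 0.0717 CPM per kb, and Wnt9b was lowest at 0.0806 ± 0.0436 CPM per kb. These levels use the summed length of all annotated exons, so a gene whose cells use a shorter transcript is understated.

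**Figure D1:**
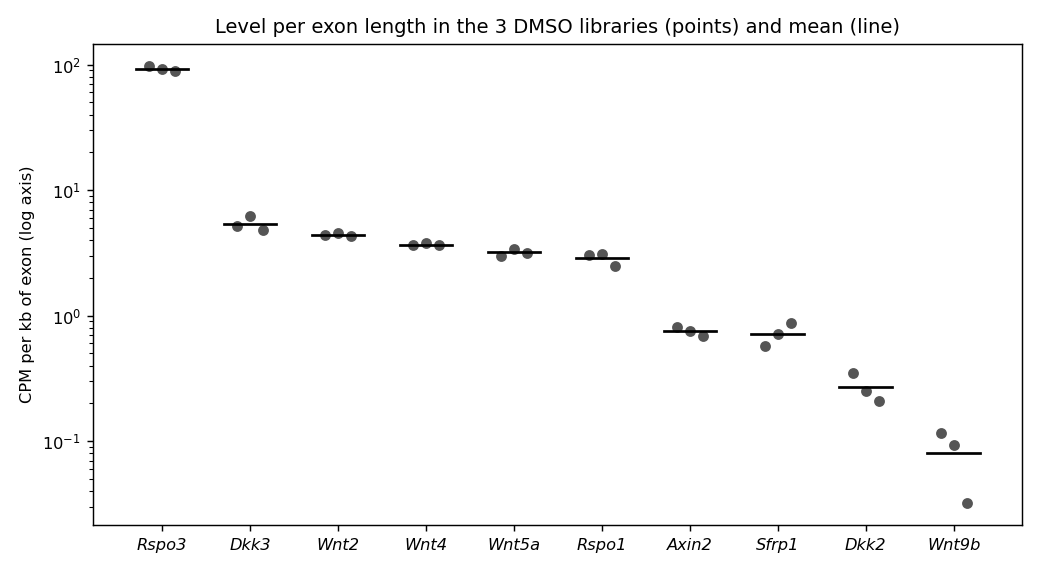
Level of each of the 10 genes in CPM per kb of exon (log axis) in the 3 DMSO libraries (points), with the mean as a line. Rspo3 stands at 92.7 CPM per kb, above Dkk3 at 5.38, and Wnt9b is lowest at 0.0806.

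The question of the time-matched comparison is what riociguat changed after 12 h. Rspo3 rose, the 1 of the 10 members that passed the test, against 5.66% of all genes tested (an adjusted p under 0.05 by the quasi-likelihood F test of edgeR) and 2.18% that rose. The riociguat and DMSO libraries did not overlap for 5 of the 10, against 22.4% of all genes: Rspo3 and Wnt2 were higher, and Wnt4, Wnt5a and Dkk3 were lower. After 24 h, 5 of 10 passed against 13.4% of all genes. Rspo3, Wnt2 and Wnt4 rose (3 of 10, against 5.94% of all genes), and Rspo1 and Dkk3 fell (2 of 10, against 7.41%). Groups did not overlap for 6 of 10, against 28.3%. After 6 h Dkk3 alone passed, as a fall, against 9.72% of all genes and 5.24% that fell, and groups did not overlap for 3 of 10, against 25.7%. The median log2 change of the 10 members was -0.12 at 12 h, -0.17 at 6 h and 0.05 at 24 h, and that of all genes tested lay between -0.01 and 0.00. The members were chosen with earlier results of these data known, so their shares beside those of all genes are a description only. The 3 comparisons share the DMSO libraries, and at 6 and 24 h they hold the compound together with its time of addition. The cholangiocyte marker sum was above its DMSO range at 12 h, at 661 to 754 CPM, and at 24 h, at 982 to 1025 CPM. Spp1 was the 1 of 7 genes that rose each time (by 0.54 ± 0.06 on the log2 scale at 12 h, adjusted p = 6.24e-06, and by 1.46 ± 0.06 at 24 h). It went from 266 CPM in DMSO to 386 and 732 CPM, and the mean of the sum from 565 to 708 and 1003 CPM. None of the other cholangiocyte markers passed at 12 or 24 h. The hepatocyte marker sum was 572 to 797 CPM at 24 h, below its DMSO range. Their part in the members' changes was not tested.

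**Figure D2:**
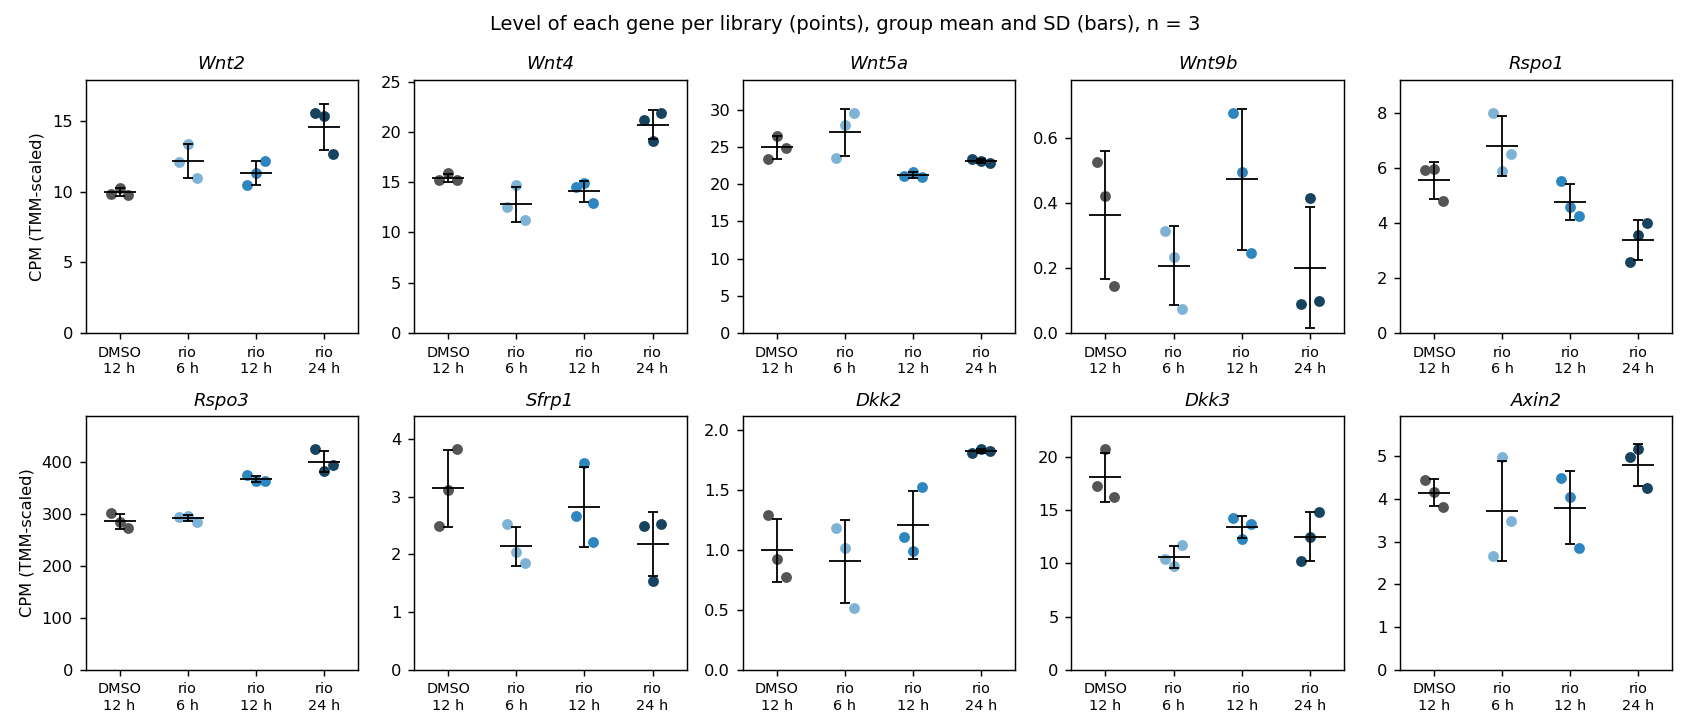
Level of each gene in CPM (linear axes from 0) in the 12 libraries, grouped by treatment and exposure (rio: riociguat), with group mean and SD (n = 3). Rspo3 is higher at 12 and 24 h, Wnt4 at 24 h, and Dkk3 is lower in all 3 riociguat groups than in DMSO, where it was at 16.2 to 20.7 CPM.

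Rspo3, the abundant R-spondin (ENSMUSG00000019880, GRCm38 chromosome 10, 29452416 to 29535867, minus strand), was at 302, 285 and 273 CPM in the DMSO libraries. It was at 294, 297 and 286 CPM after 6 h of riociguat, at 375, 364 and 364 CPM after 12 h, and at 425, 384 and 396 CPM after 24 h. The 6 h libraries lay within the DMSO range, and every 12 h and 24 h library lay above it. The log2 fold change against DMSO was 0.36 ± 0.05 at 12 h (SE; edgeR's quasi-likelihood test, adjusted p = 6.87e-05), a fold of 1.28. It was 0.49 ± 0.05 at 24 h (adjusted p = 1.39e-06), a fold of 1.40. At 6 h it was 0.03 ± 0.05, with a 95% interval of -0.07 to 0.13. Whichever library was left out, DMSO replicate 1 included, the change at 12 h stayed between 0.33 and 0.40 and that at 24 h between 0.46 and 0.53. At 12 h 2 of the 12 stellate markers rose (Reln and Hgf) and 2 fell (Des and Pdgfrb), against 5.66% of all genes tested. At 24 h 6 of these markers rose and 2 fell, against 13.4%. Their sum was 3254 to 3380 CPM at 12 h and 3372 to 3627 CPM at 24 h, above its DMSO range. At 6 h, where Rspo3 did not pass, it was 3246 to 3342 CPM, also above that range. Reln made up much of this sum. Its mean went from 1367 CPM in DMSO to 1552, 1593 and 1665 CPM after 6, 12 and 24 h. The mean of the sum went from 3103 CPM to 3305, 3310 and 3498 CPM. The endothelial marker sum was below its own DMSO range at 12 and 24 h, at 1836 to 1972 and 1767 to 1854 CPM. At 12 h 2 of the 12 endothelial markers passed, Stab1 and Eng, both lower, against 5.66% of all genes tested. Eng went from a mean of 771 CPM in DMSO to 692 CPM at 12 h, and the mean of the sum from 2058 to 1906 CPM. The part of these shifts in the rise of Rspo3 was not tested. Of 2 genes that overlap Rspo3, Gm20276 on the same strand had 194 counts in all libraries together and Gm48159 on the other strand had 1, against 84346 for Rspo3.

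Rspo1, its less abundant relative (chromosome 4, 124986430 to 125009099, plus strand), went the other way at 24 h. It was at 5.93, 5.98 and 4.79 CPM in DMSO, at 8.02, 5.91 and 6.52 CPM after 6 h, at 5.52, 4.58 and 4.25 CPM after 12 h, and at 2.58, 3.56 and 4.01 CPM after 24 h. Every 24 h library was below every library of the other groups. Rspo1 fell by 0.72 ± 0.20 on the log2 scale at 24 h against DMSO (adjusted p = 0.0208). It did not pass without DMSO replicate 2 (adjusted p = 0.079), without riociguat 24 h replicate 1 (adjusted p = 0.11) and when only the 6 libraries of both groups were fitted (adjusted p = 0.0547). The changes at 6 and 12 h, 0.28 ± 0.19 and -0.22 ± 0.19, did not pass. The other R-spondin genes were hardly detected, with 17 counts for Rspo2 and 3 for Rspo4 over all 12 libraries.

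Among the ligands, Wnt2 and Wnt4 were both higher at 24 h. Promoter sequences from RefSeq (GRCm38.p6) were given for 6 of the 10 members. Each window holds the 250 bases before the RefSeq start site. For Wnt2 and Wnt4 that start lies inside the GENCODE gene, so 140 and 146 bases of their windows do too, and for the other 4 the window ends where the GENCODE gene begins. Shown 5′ to 3′ is the part outside the GENCODE gene, 110 bases for Wnt2, 104 for Wnt4 and the whole window for Rspo1, whose levels moved at 24 h, and for Axin2, the target gene. Capitals mark CG dinucleotides.
Wnt2 (chr6:18030586-18030695, minus strand): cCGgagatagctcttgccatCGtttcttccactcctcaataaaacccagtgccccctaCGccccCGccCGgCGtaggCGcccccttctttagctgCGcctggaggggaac
Wnt4 (chr4:137277385-137277488, plus strand): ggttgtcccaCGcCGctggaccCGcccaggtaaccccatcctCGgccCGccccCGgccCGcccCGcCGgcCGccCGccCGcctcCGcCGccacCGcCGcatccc
Rspo1 (chr4:124986180-124986429, plus strand): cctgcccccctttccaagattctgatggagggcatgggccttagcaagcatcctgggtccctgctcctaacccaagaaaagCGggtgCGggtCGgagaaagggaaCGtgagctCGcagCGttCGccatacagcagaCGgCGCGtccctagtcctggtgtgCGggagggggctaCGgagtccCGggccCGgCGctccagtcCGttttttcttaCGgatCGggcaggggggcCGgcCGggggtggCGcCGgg
Axin2 (chr11:108920099-108920348, plus strand): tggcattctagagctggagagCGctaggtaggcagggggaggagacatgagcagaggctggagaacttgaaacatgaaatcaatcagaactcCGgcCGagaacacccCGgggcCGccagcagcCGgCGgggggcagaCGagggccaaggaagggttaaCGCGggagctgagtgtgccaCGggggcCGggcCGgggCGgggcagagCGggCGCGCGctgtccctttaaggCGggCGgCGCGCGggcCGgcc
The 4 windows of 250 bases held 20, 44, 22 and 24 CG dinucleotides, against a median of 6 over the 32851 promoter windows of the same length, and 63.6%, 85.2%, 66.8% and 69.2% G or C, against a median of 52.4%. Among the member windows not shown, that of Wnt9b held 22 CG dinucleotides and 72.0% G or C. The window of Dkk2 held 7 and 55.6%, near both medians. The TCF/LEF letters AACAAAG, or the same letters beginning with AT, TA or TT, read on both strands, were in 14.8% of all windows and in 0 of the 6 member windows. The cyclic AMP response element core TGACG was in 17.8% of all windows, the TEAD letters GGAATG in 12.6% and the CArG box of SRF in 1.47%, each on both strands and in 0 of the 6. No match says only that these letters are not in these windows.

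Wnt2, a canonical ligand of liver endothelium (ENSMUSG00000010797, chromosome 6, 17988940 to 18030585, minus strand), was at 9.86, 10.3 and 9.78 CPM in DMSO. It was at 12.1, 13.4 and 11.0 CPM after 6 h, at 10.5, 11.3 and 12.2 CPM after 12 h, and at 15.6, 15.4 and 12.7 CPM after 24 h. All 9 riociguat libraries were above the 3 DMSO libraries. The change passed the test at 24 h, with a log2 fold change of 0.54 ± 0.11 (adjusted p = 0.00304), and passed whichever library was left out (adjusted p up to 0.0164). At 6 and 12 h it was 0.29 ± 0.11 (adjusted p = 0.13) and 0.18 ± 0.11 (adjusted p = 0.459). Of 12 endothelial markers 6 fell at 24 h, Pecam1 and Cdh5 among them, and Clec4g and Fcgr2b rose, against 13.4% of all genes tested. At 6 h 4 rose, at a summed level of 2152 to 2294 CPM, and 1 fell, against 9.72%. What part these markers' shifts have in the level of Wnt2 was not tested.

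Wnt4, a ligand that acts through several Wnt branches (ENSMUSG00000036856, chromosome 4, 137277489 to 137299726, plus strand), was at 15.2, 15.9 and 15.2 CPM in DMSO. After 6 h it was at 12.5, 14.7 and 11.2 CPM, after 12 h at 14.5, 14.9 and 12.9 CPM, and after 24 h at 21.2, 19.1 and 21.9 CPM. Every library of the 6 h and 12 h groups was below DMSO and every 24 h library above it. The log2 fold change was 0.43 ± 0.10 at 24 h (adjusted p = 0.00845), and its adjusted p was at most 0.0376 whichever library was left out. It was -0.13 ± 0.10 at 12 h (adjusted p = 0.597) and -0.27 ± 0.11 at 6 h (adjusted p = 0.12), where it passed only without riociguat 6 h replicate 2 (adjusted p = 0.0382).

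Wnt5a, the ligand best known for beta-catenin-independent signalling (chromosome 14, 28504750 to 28527448, plus strand), had the highest CPM of the 4 ligands. It was at 23.4, 26.5 and 24.9 CPM in DMSO, at 23.5, 27.9 and 29.6 CPM after 6 h, at 21.1, 21.7 and 21.0 CPM after 12 h, and at 23.4, 23.1 and 22.9 CPM after 24 h. The 12 h libraries lay close together and below all others. The log2 fold change against DMSO at 12 h, -0.23 ± 0.08, did not pass (adjusted p = 0.146). It was 0.12 ± 0.08 at 6 h and -0.11 ± 0.08 at 24 h. Gm2670, which overlaps Wnt5a on the other strand, had 29 counts in all against 6086 for Wnt5a.

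Wnt9b, the other endothelial ligand (chromosome 11, 103727364 to 103749821, minus strand), was near the limit of detection, with 2 to 14 counts per library and 77 in all. It was at 0.526, 0.421 and 0.145 CPM in DMSO, where 3 counts correspond to 0.126 to 0.145 CPM. Its levels in riociguat libraries were 0.0741 to 0.678 CPM and the groups overlapped. The 95% interval of its log2 change at 12 h was -1.02 to 1.76, which holds rises and falls, so its direction is not settled at this depth. This interval is not a limit of detection, as a call needs an adjusted p under 0.05.

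Dkk3, a divergent member of the Dickkopf family of secreted proteins (ENSMUSG00000030772, chromosome 7, 112116017 to 112159057, minus strand), had its highest levels in DMSO. It was at 17.3, 20.7 and 16.2 CPM in DMSO, at 10.4, 9.72 and 11.7 CPM after 6 h, at 14.3, 12.3 and 13.7 CPM after 12 h, and at 10.2, 12.5 and 14.8 CPM after 24 h. No riociguat library reached the lowest DMSO library. Dkk3 fell by 0.76 ± 0.13 on the log2 scale at 6 h (adjusted p = 0.00115), to a fold of 0.59, and the adjusted p was at most 0.011 whichever library was left out. At 24 h it fell by 0.53 ± 0.13 (adjusted p = 0.0111). The call did not hold without DMSO replicate 2 (adjusted p = 0.0809) or riociguat 24 h replicate 1 (adjusted p = 0.0747). At 12 h the log2 fold change was -0.43 ± 0.13, which missed the threshold (adjusted p = 0.0678) but passed with DESeq2 (adjusted p = 0.048), without a low-count filter (adjusted p = 0.0151) and when only the 6 libraries of both groups were fitted (adjusted p = 0.0414). The summed level of portal fibroblast and mesothelial markers was 526 to 556 CPM at 6 h, below its DMSO range. Of 9 tested genes, Fbln2 was lower and Cd34 higher, against 9.72% of all genes tested that passed. Fbln2 went from 384 to 252 CPM, about as much as the sum, whose mean went from 669 to 540 CPM. At 12 h the sum was 634 to 671 CPM and at 24 h 605 to 634 CPM, with Cd34 lower. Its part in the fall of Dkk3 was not tested.

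Dkk2, a ligand of the Lrp co-receptors, was at 1.29, 0.927 and 0.775 CPM in DMSO, at 1.18, 1.02 and 0.519 CPM after 6 h, at 1.11, 0.990 and 1.53 CPM after 12 h and at 1.81, 1.84 and 1.83 CPM after 24 h. The 24 h libraries were above all others, yet the log2 fold change of 0.87 ± 0.36 against DMSO did not pass (adjusted p = 0.122), with 16 to 40 counts per library in these 2 groups. Sfrp1, a secreted Wnt-binding protein, was at 2.49, 3.12 and 3.82 CPM in DMSO, at 2.52, 2.05 and 1.85 CPM after 6 h, at 2.66, 3.59 and 2.22 CPM after 12 h and at 2.49, 1.54 and 2.52 CPM after 24 h. Its log2 fold changes of -0.57 ± 0.27 at 6 h, -0.15 ± 0.26 at 12 h and -0.51 ± 0.27 at 24 h did not pass, and its groups overlapped.

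Axin2, a scaffold of the beta-catenin destruction complex whose gene is itself a target of the pathway (ENSMUSG00000000142, chromosome 11, 108920349 to 108950783, plus strand), did not pass in any of the 6 comparisons. It was at 4.45, 4.17 and 3.82 CPM in DMSO, at 2.67, 4.98 and 3.48 CPM after 6 h, at 4.50, 4.04 and 2.86 CPM after 12 h, and at 4.98, 5.16 and 4.25 CPM after 24 h. Every riociguat group overlapped with DMSO. The 95% interval of the log2 change against DMSO ran from -0.62 to 0.34 at 6 h, from -0.60 to 0.35 at 12 h and from -0.26 to 0.68 at 24 h, so a shift within these bounds cannot be told from no change at this precision.

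**Figure D3:**
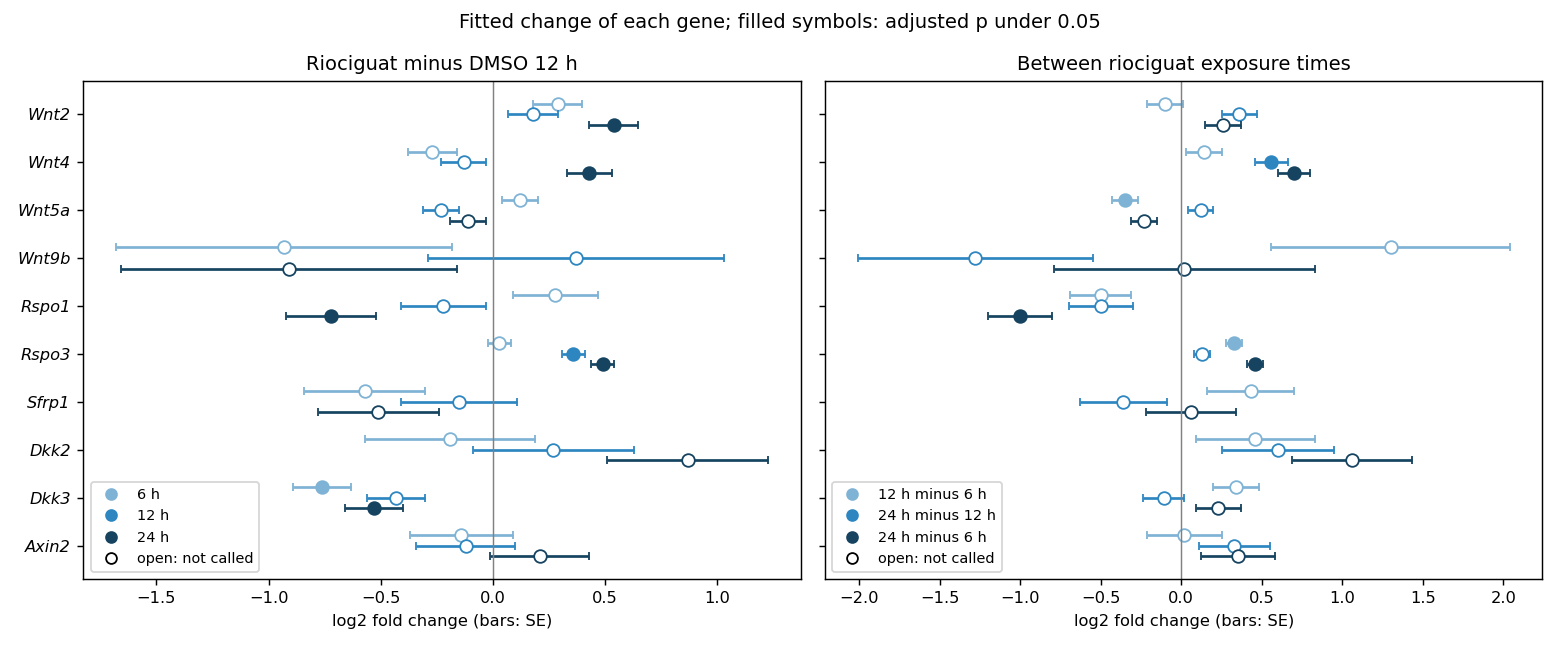
Fitted log2 fold change of each gene with its SE, for riociguat against DMSO 12 h (left) and between riociguat exposure times (right). Filled symbols passed at an adjusted p under 0.05: Rspo3 at 12 and 24 h, Wnt2, Wnt4 and Rspo1 at 24 h and Dkk3 at 6 and 24 h on the left.

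Between riociguat exposure times, 2 of the 10 members differed from 6 to 12 h, against 6.09% of all genes tested. Rspo3 was higher at 12 h by 0.33 ± 0.05 on the log2 scale (adjusted p = 0.000202), and Wnt5a was lower, with a log2 fold change of -0.35 ± 0.08 (adjusted p = 0.0156). Of the 6 libraries left out in turn, the Wnt5a call held only without riociguat 6 h replicate 1, with adjusted p up to 0.117 otherwise. From 12 to 24 h only Wnt4 passed, against 3.08% of all genes, and rose by 0.56 ± 0.10 (adjusted p = 0.00377). From 6 to 24 h 3 members passed, against 15.3% of all genes. Wnt4 rose by 0.70 ± 0.10 (adjusted p = 0.000132), Rspo3 rose by 0.46 ± 0.05 (adjusted p = 2.14e-06) and Rspo1 had a log2 fold change of -1.0 ± 0.20 (adjusted p = 0.00177), a fold of 0.50. These 3 calls held whichever library was left out. Dkk2 was 1.06 ± 0.37 higher at 24 h than at 6 h and did not pass (adjusted p = 0.0623).

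Over the 12 libraries, the profile nearest to that of Rspo3 among 12666 genes was that of Ier3, at a root-mean-square distance of 0.0547 in log2 CPM centred on each gene's mean, and Pkd2 (0.0669) and Scarb2 (0.0678) were next. Wnt2 was nearest to Lgmn, Mrc1 and Neo1 (0.0926 to 0.108), and Wnt4 to Ckap2, Ncaph and Tifa (0.104 to 0.124). Wnt5a was nearest to Zbtb38, Nln and Cabin1 (0.0721 to 0.0872), and Dkk3 to Apc2, Ppp1r14a and Cdk6 (0.136 to 0.152). Axin2 was nearest to Zswim7, Prickle1 and Wnk2 (0.141 to 0.171), and Rspo1 to Slc12a5, Mfng and Rps6ka2 (0.166 to 0.172). The nearest genes of Sfrp1 (Ube2cbp, Pithd1 and Shf) and of Dkk2 (Dennd2d, Plac8 and Dna2) were farther off, at 0.210 to 0.243.

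Of the 15 other Wnt ligand genes 6 were tested, Wnt7b (14.9 ± 0.377 CPM in DMSO) and Wnt7a (8.87 ± 1.09 CPM) the most abundant, and none passed against DMSO at any exposure by edgeR or DESeq2. Of all genes tested, 5.66% passed at 12 h, 9.72% at 6 h and 13.4% at 24 h by edgeR. An absence of calls among 6 genes therefore does not set these ligands apart. At an unadjusted p under 0.05 edgeR gave 0 at 12 h, 1 at 6 h (Wnt2b) and 1 at 24 h (Wnt7b). The share of all genes at that unadjusted threshold was not counted. Wnt3a, Wnt8b and Wnt16 had 0 counts in all 12 libraries, which allows up to 0.0120 CPM over their 251018354 counts, a limit that covers counting error only. From 12 to 24 h, where 3.08% of all genes tested passed, Wnt7b fell by 0.57 ± 0.12 on the log2 scale (adjusted p = 0.0141). This did not pass without riociguat 12 h replicate 2 (adjusted p = 0.0967) or riociguat 24 h replicate 3 (adjusted p = 0.0824). It was named after its values were seen.

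Of 14 other Wnt antagonist genes 6 were tested. At 6 h 2 fell (DESeq2 called Trabd2b as well), against 9.72% of all genes tested that passed by edgeR. At 24 h 2 rose and 1 fell, against 13.4%. None passed at 12 h by edgeR or DESeq2, against 5.66% of all genes tested by edgeR. At 12 h 2 had an unadjusted p under 0.05 in edgeR (Frzb and Trabd2b), and the share of all genes at that threshold was not counted. Frzb, a Wnt-binding protein of the Sfrp family, was the most abundant, at 148, 145 and 138 CPM in DMSO and at 107, 105 and 107 CPM after 6 h, and it fell by 0.43 ± 0.05 on the log2 scale (adjusted p = 1.4e-05). It was at 137, 132 and 130 CPM after 12 h, which did not pass, and at 169, 151 and 163 CPM after 24 h, a log2 fold change of 0.17 ± 0.05 against DMSO (adjusted p = 0.0249) that was lost when any 1 of 4 libraries was left out (DMSO replicates 2 and 3 and riociguat 24 h replicates 1 and 3), with adjusted p up to 0.0924, and when only the 6 libraries of both groups were fitted (adjusted p = 0.0588). Sfrp2 went from 3.94 ± 0.715 to 2.26 ± 0.434 CPM at 6 h (adjusted p = 0.0336). It did not pass when any 1 of 4 libraries was left out (DMSO replicates 1 and 3 and riociguat 6 h replicates 2 and 3), with adjusted p up to 0.152. At 24 h Trabd2b, a membrane protease that inactivates Wnts, rose by 0.33 ± 0.09 (adjusted p = 0.017) and Igfbp4 fell by 0.23 ± 0.06 (adjusted p = 0.0108). Trabd2b no longer passed without DMSO replicate 1 (adjusted p = 0.0596) or riociguat 24 h replicate 2 (adjusted p = 0.0676), and Igfbp4 no longer passed without DMSO library 2 or 3 or riociguat 24 h library 1 (adjusted p up to 0.0792). The median log2 change of the 6 genes was -0.37 at 6 h, -0.07 at 12 h and 0.11 at 24 h.

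Of 11 genes of Wnt secretion and transport, all tested, 1 fell at 12 h, 2 fell at 6 h, and 1 rose and 2 fell at 24 h. Among all genes tested, 5.66%, 9.72% and 13.4% passed at 12, 6 and 24 h. Wls, the carrier that takes Wnt proteins to the cell surface, rose from 143 ± 5.83 to 165 ± 3.08 CPM at 24 h (adjusted p = 0.00335). The heparan sulfatase genes Sulf1 and Sulf2 fell at 24 h by 0.42 ± 0.07 and 0.40 ± 0.06 on the log2 scale, and these 3 calls held whichever library was left out. The proteoglycan gene Gpc4 fell by 0.29 ± 0.06 at 6 h (adjusted p = 0.00337). Its fall of 0.24 ± 0.06 at 12 h (adjusted p = 0.0177) was lost without DMSO replicate 2 or any single riociguat 12 h library (adjusted p up to 0.126). Sulf1 also passed at 6 h (adjusted p = 0.0339). Of the 6 libraries left out in turn, the call held only without DMSO replicate 2.

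Of 16 tested receptors and co-receptors, 1 fell at 12 h, 1 rose and 3 fell at 6 h, and 1 rose and 2 fell at 24 h. The shares of all genes tested that passed were 5.66% at 12 h, 9.72% at 6 h and 13.4% at 24 h. DESeq2 called 2 at 12 h, Ryk and Fzd5, and 2 at 24 h, Fzd1 and Lrp5. Ryk, an atypical Wnt receptor, fell by 0.20 ± 0.04 at 6 h (adjusted p = 0.00598). Its change of -0.17 ± 0.04 at 12 h (adjusted p = 0.0264) was lost without DMSO library 2 or 3 or riociguat 12 h library 2 or 3 (adjusted p up to 0.177). Ror1, a receptor of Wnt5a, fell from 8.82 ± 1.36 to 5.32 ± 1.27 CPM at 6 h (adjusted p = 0.014). This did not pass without DMSO library 3 or riociguat 6 h library 2 or 3 (adjusted p up to 0.0825). Fzd4, named after its values were seen, rose by 0.21 ± 0.06 at 6 h (adjusted p = 0.0389). It did not pass without DMSO library 2 or 3 or riociguat 6 h library 1 or 2 (adjusted p up to 0.164). Fzd1 rose by 0.31 ± 0.07 at 24 h (adjusted p = 0.00624). Fzd5 was at -0.33 ± 0.10 at 12 h (log2, adjusted p = 0.0529). Fzd5, lower at 6 and 24 h (adjusted p = 0.0289 and 0.0405), and Lrp5, lower at 24 h by 0.16 ± 0.04 (adjusted p = 0.0181), each lost the call without at least 4 of the 6 single libraries left out in turn, with adjusted p up to 0.17 and 0.13. Of the 5 R-spondin receptor and ligase genes 4 were tested, and Lgr4, Znrf3 and Rnf43 did not pass against DMSO. Lgr5 had 57 counts in all. Lgr6 went from 8.35 ± 0.833 to 6.02 ± 0.391 CPM at 6 h (adjusted p = 0.0317). The call did not hold without DMSO library 2 or riociguat 6 h library 2 or 3 (adjusted p up to 0.143).

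In the beta-catenin core list none of 23 genes passed at 12 h by edgeR or DESeq2, and 1, Tcf7l1, had an unadjusted p under 0.05 in edgeR. By edgeR 5.66% of all genes tested passed at 12 h, 9.72% at 6 h and 13.4% at 24 h. These shares are for adjusted p, and the share at an unadjusted p under 0.05 was not counted. At 6 h Tle3, a co-repressor of TCF/LEF factors, fell by 0.49 ± 0.05 (adjusted p = 3.98e-06), and Tnks2, which marks Axin proteins for breakdown, rose by 0.27 ± 0.04 (adjusted p = 0.000218). Bcl9, a co-activator of beta-catenin, rose by 0.29 ± 0.08 at 6 h (adjusted p = 0.0209). This did not pass without DMSO library 1 or 3 or riociguat 6 h library 1 or 3 (adjusted p up to 0.118). Tcf7l1 alone passed at 24 h (adjusted p = 0.0351). It did not pass without DMSO library 2 or 3 or riociguat 24 h library 2 or 3 (adjusted p up to 0.175). Of 12 tested beta-catenin target genes, Ccnd1 and Myc, which many other pathways also control, were the 2 that fell at 12 h and at 6 h, and Myc the 1 that fell at 24 h. Ccnd1 was at 188, 186 and 196 CPM in DMSO, 99.3, 99.3 and 93.8 CPM after 6 h, 139, 124 and 142 CPM after 12 h and 161, 170 and 185 CPM after 24 h. Its log2 fold change was -0.97 ± 0.06 at 6 h (adjusted p = 1.69e-08) and -0.50 ± 0.06 at 12 h (adjusted p = 2.41e-05). Myc went from 229 ± 0.638 CPM in DMSO to 204 ± 8.61, 189 ± 8.47 and 179 ± 6.77 CPM after 6, 12 and 24 h. Its change at 6 h (adjusted p = 0.0317) held only without riociguat 6 h replicate 3 among the 6 libraries left out in turn, and those at 12 and 24 h held whichever library was left out. Other targets on the list, Nkd1 (23.4 ± 1.69 CPM in DMSO), Znrf3 (20.3 ± 3.25 CPM) and Tcf7 (17.4 ± 1.62 CPM), did not pass against DMSO at any exposure, as Axin2 did not.

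**Figure D4:**
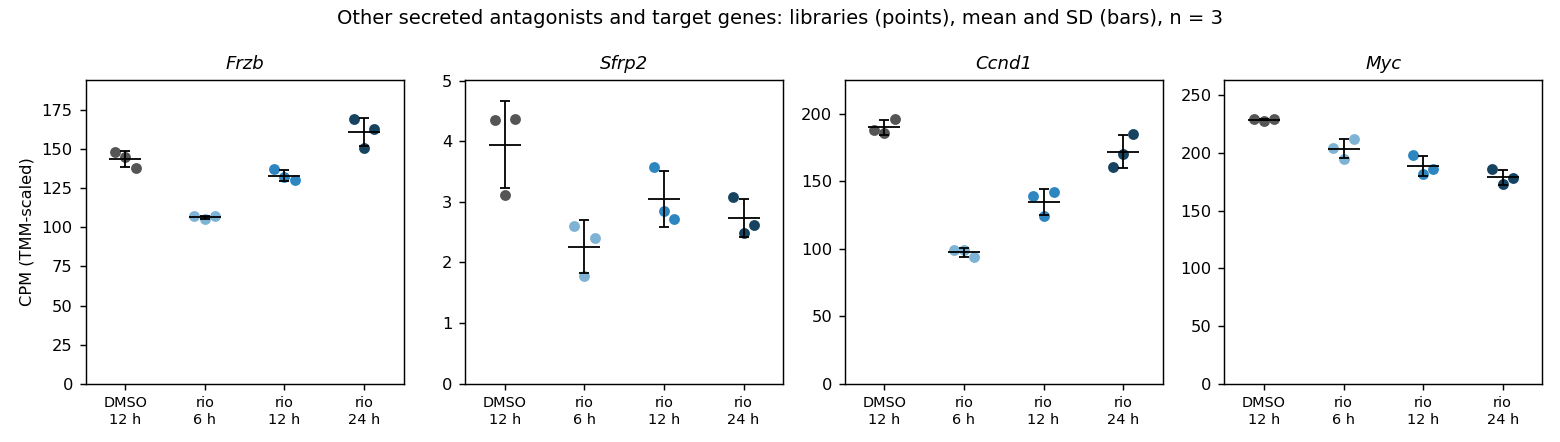
Level in CPM (linear axes from 0) of the antagonist genes Frzb and Sfrp2 and the target genes Ccnd1 and Myc in the 12 libraries (rio: riociguat), with group mean and SD (n = 3). Frzb and Ccnd1 are lowest at 6 h, at 105 to 107 and 93.8 to 99.3 CPM.

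Of 14 genes of the planar polarity and calcium branch none passed at 12 h by edgeR or DESeq2, and 2 had an unadjusted p under 0.05 in edgeR (Scrib and Nfatc1). Beside this list, 5.66% of all genes tested passed at 12 h, 9.72% at 6 h and 13.4% at 24 h by edgeR. These are shares at an adjusted p under 0.05, and the share at an unadjusted p under 0.05 was not counted. At 6 h Nfatc4 rose by 0.47 ± 0.13 (adjusted p = 0.0295) and Daam2 fell by 0.36 ± 0.09 (adjusted p = 0.0194), each call lost without 3 of the 6 libraries left out in turn. At 24 h 4 fell: Nfatc1 by 0.30 ± 0.07, Daam1 by 0.26 ± 0.06, Prickle2 by 0.23 ± 0.06 and Celsr2 from 6.67 ± 0.696 to 4.39 ± 0.745 CPM (adjusted p = 0.0324). Celsr2, named after its values were seen, lost the call without 4 of the 6 single libraries (DMSO replicates 1 and 2 and riociguat 24 h replicates 1 and 3), with adjusted p up to 0.15. Without single riociguat 24 h libraries or, for Prickle2, DMSO replicate 3, the adjusted p of the first 3 rose to at most 0.0595, 0.0631 and 0.111. Of 9 hepatocyte markers tested 8 fell at 24 h (7 by DESeq2) and their sum was 572 to 797 CPM, and none passed at 6 or 12 h by edgeR or DESeq2. At an unadjusted p under 0.05 edgeR gave 1 at 6 h (Alb) and 0 at 12 h. Their part in the changes at 24 h was not tested.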

How the data were processed

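Total RNA of 12 mouse HSC cultures in 4 groups of 3 was sequenced. The authors deposited 1 table of estimated counts per gene (expected counts, not whole numbers), and per the submitters' processing notes the tools used were fastp, FastQC, Salmon and DESeq2, with the build GRCm38. Tool versions are not given in those notes. The estimated counts were rounded. The test was the quasi-likelihood F test of edgeR 4.0.16 (R 4.3.3), after filterByExpr and with TMM factors, in 1 fit of 12 libraries with a term per group, which pools the spread over groups. Genes were called at a Benjamini-Hochberg adjusted p under 0.05 over 16036 genes in each of 6 comparisons. SE is the absolute log2 fold change divided by the square root of F. The 95% intervals use a t distribution with 8 residual and 8.80 prior degrees of freedom.

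The common biological coefficient of variation was 0.0798. Salmon assigns shared reads by probability, so counts of overlapping or similar genes are estimates. The procedure was tested on simulated counts for riociguat 12 h against DMSO (15704 genes). It called 13 of 50 genes changed 1.25-fold, 31 of 50 changed 1.5-fold, 32 of 48 changed 2-fold and 43 of 50 changed 4-fold, and 6 of 15506 unchanged genes. The pass rule was set after that result to genes of at least 1 CPM, where 40 of 42 changed 4-fold were called. Wnt9b, and Dkk2 in some libraries, lie under 1 CPM. Gene positions and exon lengths come from GENCODE vM21, which held 53355 of the 53452 identifiers. The alternatives were RLE factors, DESeq2 1.42.0, no filter, fitting the 6 libraries of a comparison alone, a replicate block, leaving out each library and, chosen after seeing the data, no factors. Some searched motifs were also added after seeing the data.

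The members and gene lists were chosen with earlier results of these data known. All members are named. From each other list the named genes are up to 5 called at 12 h and up to 3 called at 6 and at 24 h, by smallest p. The nearest profiles are the 3 with the smallest distance among genes of at least 1 CPM with a gene symbol. Of 185 list genes 184 were matched.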

Additional observations from a re-analysis of the deposited data

Results flagged for a closer look

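The changes of 4 members against DMSO differed between riociguat exposure times by edgeR's test of the difference itself. The shared DMSO libraries drop out of that difference, but they stay in the fit of 12 libraries that estimates the spread. Rspo3 was 0.33 higher on the log2 scale at 12 h than at 6 h and 0.46 higher at 24 h than at 6 h. Wnt4 was 0.56 higher at 24 h than at 12 h and 0.70 higher than at 6 h. Rspo1 had a log2 difference of -1.0 between 24 and 6 h. Wnt5a had one of -0.35 between 12 and 6 h, and that call was lost without 5 of the 6 libraries left out in turn.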

How the results depend on the processing

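Of 715 alternative values for the members' changes, 682 kept their direction and their side of the threshold. At 12 h against DMSO 1 member was called, and 2 were called with DESeq2, without a low-count filter and when only the 6 libraries of both groups were fitted, where Dkk3 joined Rspo3. Without single libraries the number was 1 to 1 at 12 h, 1 to 2 at 6 h and 3 to 5 at 24 h against DMSO, 1 to 2 from 6 to 12 h, 1 to 1 from 12 to 24 h and 3 to 4 from 6 to 24 h. Without DMSO replicate 1 no member's call against DMSO changed. The calls of Rspo3 at 12 and 24 h, Wnt2 and Wnt4 at 24 h and Dkk3 at 6 h held in every alternative run.

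The direction turned in 18 alternative values, none of a called change. Without single libraries Axin2 ran from -0.25 to 0.05 (log2) at 12 h and from -0.41 to 0.02 at 6 h against DMSO, and from -0.14 to 0.28 from 6 to 12 h. Dkk2 ran from -0.39 to 0.13 and Rspo3 from -0.00 to 0.07 at 6 h against DMSO. Dkk3 ran from -0.25 to 0.03 from 12 to 24 h. Sfrp1 ran from -0.35 to 0.02 at 12 h against DMSO and from -0.04 to 0.26 from 6 to 24 h. Wnt9b ran from -0.96 to 0.39 from 6 to 24 h.

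The replicate numbers are not said to pair the libraries, and same-numbered libraries correlated at -0.14 to 0.08 after group means were removed. With the replicate number as a block no member's call changed, Wnt9b from 6 to 24 h went to -0.03, and Fzd4 at 6 h and Fzd5 at 24 h lost their calls (adjusted p = 0.0569 and 0.0653). Not every library correlated best with its own number: 6 of 18 did. These all came from 2 comparisons, riociguat 24 h with DMSO and riociguat 12 h with 6 h, in which every library fitted its own number. The correlations there were 0.05 to 0.08. Whether the numbers mark a shared preparation in those groups was not tested.

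Among the other pathway genes, Ryk at 12 h lost its call without a filter (adjusted p = 0.0775) and without factors (0.0578), Lgr6 and Sulf1 at 6 h and Lrp5 at 24 h without a filter (0.0604, 0.0522 and 0.0509), and Fzd5 at 24 h with DESeq2 (0.0503) and without factors (0.0569). With only the 6 libraries of both groups, Sfrp2, Lgr6, Sulf1, Myc, Daam2 and Fzd4 at 6 h and Fzd5, Tcf7l1, Celsr2 and Frzb at 24 h lost theirs (0.0505 to 0.0742).

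Over all genes, 907 called at 12 h fell to 564, 567 and 510 without DMSO replicates 2 and 3 and riociguat 12 h replicate 2. The 1559 at 6 h fell to 955, 992 and 1010 without DMSO replicates 2 and 3 and riociguat 6 h replicate 2, and the 2141 at 24 h to 1395 without DMSO replicate 2. Between 6 and 12 h 976 fell to 596 and 600 without riociguat 12 h replicate 2 and 6 h replicate 3. Between 12 and 24 h 494 became 838 without a filter, and 318 and 319 without riociguat 12 h replicates 1 and 2. Without normalization factors the split of rises and falls went from 349 and 558 to 424 and 445 at 12 h, from 952 and 1189 to 1181 and 1021 at 24 h, from 412 and 564 to 529 and 454 between 6 and 12 h, and from 1148 and 1303 to 1398 and 1114 between 6 and 24 h. Behind the directional shares printed beside the members, the rises at 12 h became 633 without DMSO replicate 1, 204 and 223 without DMSO replicates 2 and 3, 211 without riociguat 12 h replicate 2 and 689 without a filter. The falls at 6 h became 496 to 559 without DMSO library 2 or 3 or riociguat 6 h library 2 or 3. At 24 h the rises became 598 without DMSO replicate 2 and the falls 775 without DMSO replicate 3. Counts of 2 to 14 per library limit Wnt9b.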
